A study of Mus musculus with 5 samples.

Results

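Microtubule-associated proteins and stathmins are cytoskeletal regulators of growing and migrating neurons, and 9 of their genes were followed here in the mouse medial ganglionic eminence (MGE). The genes were Map1b, Map2, Mapt, Dcx, Dclk1, Stmn1, Stmn2, Stmn3 and Stmn4. Their members on the Affymetrix arrays were all probe sets (short sets of probes that read 1 transcript stretch) whose sole gene symbol in the platform annotation was one of the 9. This gave 31 of the 45101 probe sets, for 9 of the 18193 genes with a probe set of their own. Of these, 29 were bright enough on average to be tested, and the exceptions were 1421850_at of Map1b and 1451917_a_at of Dclk1. The rule reads gene names only.

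The RNA came from the rostral MGE of embryos at E15.5, a stage in days of embryonic development, dissected to hold the ventricular and subventricular zones, on 5 arrays. The groups were mutant tissue (Dlx1/2 mutant, 2 arrays), WT tissue (1 array), primary neuronal cultures of the same zones from Dlx1/2 mutants (1 array) and such cultures from WT embryos (1 array). Dlx1 and Dlx2 are homeodomain transcription factors of the ventral forebrain, and no other allele or agent is named in the labels. Strain, culture age and pooling of embryos are not given there either, nor whether the 2 mutant tissue arrays were separate embryos or pools. The p-values therefore rest on spread that may be technical only, and levels in the groups with 1 array carry no replicate error. Differences, taken as mutant minus WT or as culture minus tissue, are on the log2 scale of normalized signal, and tested ones carry the standard error (SE) that limma gave. An adjusted p (Benjamini-Hochberg over 21602 probe sets) below 0.05 counted as past the threshold.

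Microtubules are polymers of tubulin that stiffen axons and dendrites and pull the nucleus along in migrating neurons. Structural microtubule-associated proteins coat and stabilize the polymer, with tau (Mapt) known mainly from axons and Map2 from dendrites. Doublecortin proteins bind microtubules in immature, migrating neurons. Stathmins bind free tubulin and favour disassembly. In the embryonic MGE, newborn neurons leave the proliferative zones and many migrate to the cortex as interneurons.

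The targeted genes followed the labels. Dlx1 had a deposited signal of 2.80 and 0.921 in mutant tissue against 3278 in WT tissue, and of 1.26 in mutant culture against 603 in WT culture. Dlx2 read 18.7 and 11.7 in mutant tissue against 1069 in WT tissue, and 21.7 in mutant culture against 331 in WT culture. Where these probes lie relative to the mutated sequence was not analysed here. The 4 MGE markers (Nkx2-1, Lhx6, Lhx8, Sox6) summed to 1931 and 2056 in mutant tissue, 3668 in WT tissue, 883 in mutant culture and 1435 in WT culture. They divided in tissue: Lhx8 and Lhx6 were lower in mutants (168 and 164 for Lhx8 in mutant tissue against 1513 in WT tissue), while Nkx2-1 and Sox6 differed by 0.71 and 0.07 and missed the threshold. Xist, from the inactive X chromosome of females, read 106 and 143 in mutant tissue against 625 in WT tissue, and 97.2 in mutant culture against 318 in WT culture. The Y-linked Eif2s3y read 174 and 181 in mutant tissue against 36.8 in WT tissue, and 206 in mutant culture against 140 in WT culture. Kdm5d, also Y-linked, read 161 and 132 in mutant tissue against 48.0 in WT tissue, and 71.6 in mutant culture against 31.8 in WT culture. The part of the embryos' sex in the genotype differences, of the X-linked Dcx among others, was not tested. The markers Hba-a1 and Alas2 of red blood cells were at the floor of measurement in both cultures.

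In tissue, 15 of the 29 tested member probe sets rose in mutants and 0 fell, against 6.8% and 5.14% of all probe sets tested (limma; 18 members were higher and 1 lower at an unadjusted p under 0.05). The 15 came from 7 of the 9 genes: Mapt (4 of 4), Map2 (3 of 4), Dclk1 (3 of 8), Stmn2 (2 of 2), and Map1b, Dcx and Stmn3 (1 each). Some probe sets of a gene share a target sequence. By the brightest probe set of each gene 5 of the 9 rose, against 950 of all 11063 genes. By the mean of probe sets 3 did, against 269 of 9853. One of the 15, 1423125_at of Dclk1, had passed the intensity filter only through the mutant tissue arrays, where it was high, which leaves 14 without it. On the same arrays 7 of 10 neuron markers were higher and 1 lower, all 6 cycling cell markers were lower, and 3 of 8 progenitor markers were higher and 0 lower. The part of cell makeup was not tested. The median difference over the members was 0.42, against 0.00 over all probe sets tested. In culture, 1 array against 1 and without a test, the members' median was 0.00, 0 were at least 2-fold higher and 1 was at least 2-fold lower. Over all probe sets in culture, 2.22% were at least 2-fold higher and 2.17% lower. With a variance prior that had no intensity trend, the tissue fit called 0 of the 29 members and 0 probe sets in all. With dim probe sets included it called 1 of 31 members higher and 0 lower. Of all 45037 probe sets it then called 47 higher and 1539 lower. Centring arrays on their medians raised the higher share of all tissue calls to 75.7%, against 57% as reported. Of all 21603 probe sets 2497 then rose, and 14 members did.

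**Figure D1:**
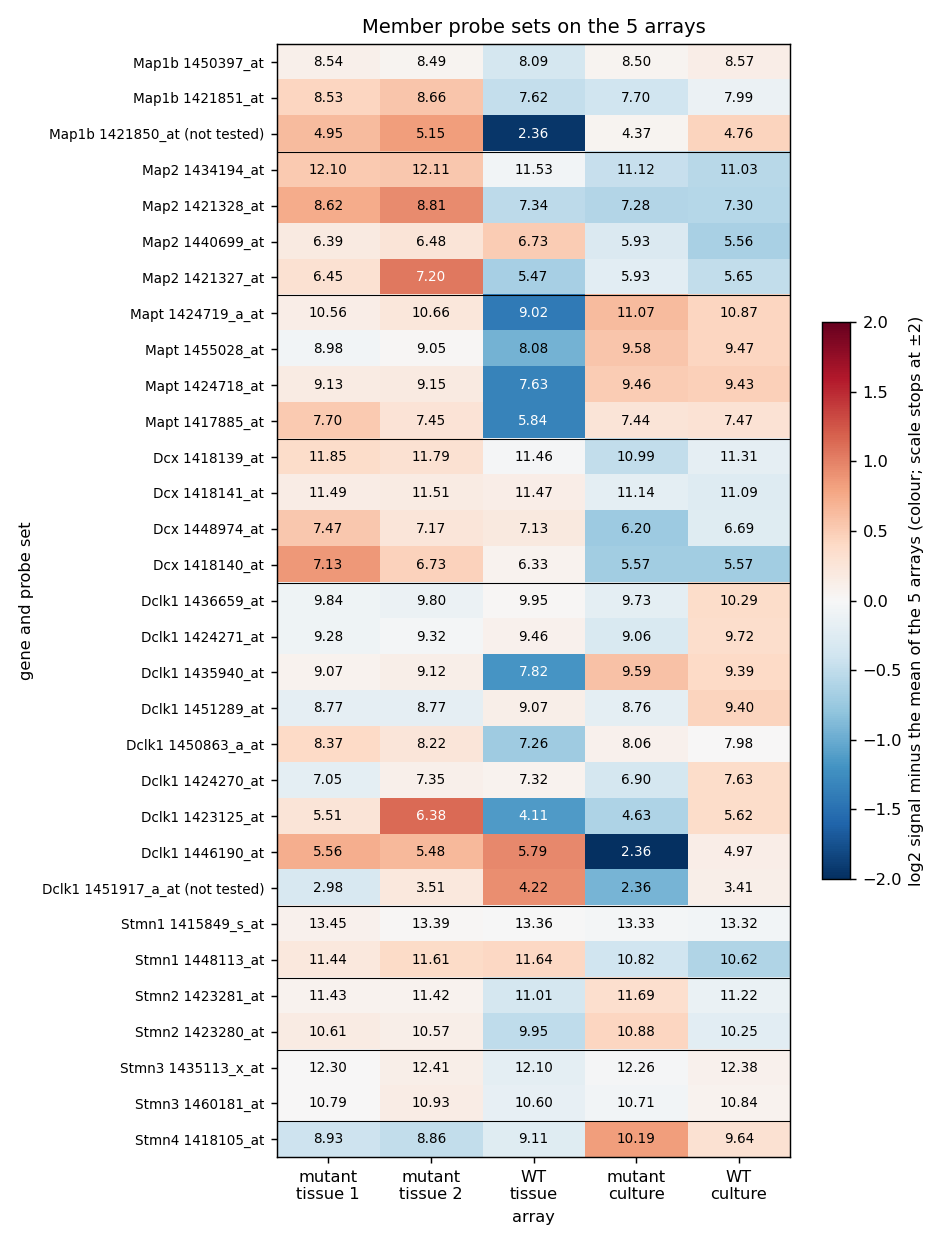
Normalized log2 signal (numbers in cells) of the 31 member probe sets in rows on the 5 arrays in columns, coloured by the difference from the probe set's own mean over the arrays. The 4 Mapt rows are lowest in WT tissue, while both Stmn2 rows are higher in mutant than in WT arrays of each preparation.

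Mapt, which encodes the axonal protein tau, rose by every probe set in mutant tissue. By its brightest probe set, 1424719_a_at, the deposited signal was 1479.7 and 1561 in mutant tissue, against 512 in WT tissue. In culture the same probe set read 2190.0 in the mutant and 1936 in WT. Both mutant tissue arrays thus lay far above WT tissue, while the culture arrays were close to each other and above every tissue array. The tissue difference was 1.59 ± 0.10 (3.01-fold, SE, limma adjusted p = 1.11e-05), and the culture difference was 0.20. The probe set 1424718_at read 567 and 577 in mutant tissue against 197 in WT tissue, a rise of 1.51 ± 0.13 (adjusted p = 9.9e-05), and 706 in mutant culture against 692 in WT culture. For 1417885_at the signal was 212 and 183 in mutant tissue against 59.1 in WT tissue (1.74 ± 0.21, adjusted p = 0.000771), and 169.7 in mutant culture against 171 in WT culture. The smallest rise, by 1455028_at, was 0.94 ± 0.13 (1.91-fold, adjusted p = 0.00145). The 4 probe sets therefore shared a direction, with sizes between 1.91-fold and 3.33-fold. Of these, 1424719_a_at and 1424718_at were designed from 1 shared target sequence, so they are not separate readings.

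The genotype difference of Mapt itself differed between the preparations. The interaction, the culture difference minus the tissue difference, was −1.39 ± 0.14 for 1424719_a_at (limma adjusted p = 0.00429), −1.48 ± 0.18 for 1424718_at (adjusted p = 0.00943) and −1.76 ± 0.30 for 1417885_at (adjusted p = 0.0257). For 1455028_at it was −0.82 ± 0.18 and missed the threshold (adjusted p = 0.0505), but passed with the deposited scaling kept (0.00961), with arrays centred on their medians (0.00885), with a pseudocount in place of the floor (0.0428) and with a stricter intensity filter (0.0287). It did not pass without an intensity trend in the prior or with dim probe sets included. By the mean of the Mapt probe sets the interaction was −1.36 ± 0.15 and missed the threshold (limma adjusted p = 0.0904). WT culture exceeded WT tissue by 1.39 to 1.84 over the 4 probe sets, between 1 array each and without a test. Mutant culture differed from mutant tissue by −0.13 to 0.57.

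Map2, the dendritic counterpart of tau, rose in mutant tissue by 3 of 4 probe sets. The brightest, 1434194_at, read 4265 and 4072 in mutant tissue against 3031 in WT tissue, and 2275 in mutant culture against 2153 in WT culture. Its tissue rise was 0.58 ± 0.07 (1.49-fold, limma adjusted p = 0.000561), and the interaction was −0.48 ± 0.10 (adjusted p = 0.0509). That interaction passed with the pseudocount (0.0415), with the stricter filter (0.0289) and in the fit on the brightest probe set of each gene (0.0366). It did not pass without an intensity trend in the prior or with dim probe sets included. By the mean of the Map2 probe sets the interaction was −0.57 ± 0.24 (limma adjusted p = 0.342). The 2 mutant tissue arrays were the highest of the 5, and both cultures the lowest. The probe sets 1421328_at and 1421327_at, designed from 1 shared target sequence, rose more, by 1.37 ± 0.15 (2.59-fold, adjusted p = 0.000431) and 1.35 ± 0.32 (2.55-fold, adjusted p = 0.0226). In deposited signal, 1421328_at read 398 and 460.1 in mutant tissue against 161 in WT tissue, and 151 in mutant culture against 153 in WT culture. As reported, only 1421328_at among the 4 had an interaction past the threshold (−1.39 ± 0.25, adjusted p = 0.0284). The probe set 1440699_at went against the others, with 85.4 and 92.9 in mutant tissue against 106 in WT tissue (−0.29 ± 0.23, adjusted p = 0.455).

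Map1b, an early structural protein of growing axons, had 3 probe sets from 1 target sequence. The signal of 1421851_at was 375 and 415 in mutant tissue against 196 in WT tissue, and 203 in mutant culture against 247 in WT culture. It rose in tissue by 0.97 ± 0.14 (1.96-fold, limma adjusted p = 0.00229), with an interaction of −1.26 ± 0.22 (adjusted p = 0.0289). The brighter 1450397_at read 378 and 371 in mutant tissue against 271 in WT tissue, and 353 in mutant culture against 374 in WT culture. Its difference of 0.43 ± 0.14 missed the threshold (adjusted p = 0.0719) but passed with the deposited scaling kept (0.0186) and with arrays centred on their medians (0.0092). It did not pass in the fit on the brightest probe set of each gene (0.0512), with dim probe sets included or without an intensity trend in the prior. The untested 1421850_at lay at the floor in WT tissue (deposited signal 2.34) and read 31.3 and 35.9 in mutant tissue, at least 6.41-fold higher. In culture it read 20.3 in the mutant and 25.4 in WT.

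**Figure D2:**
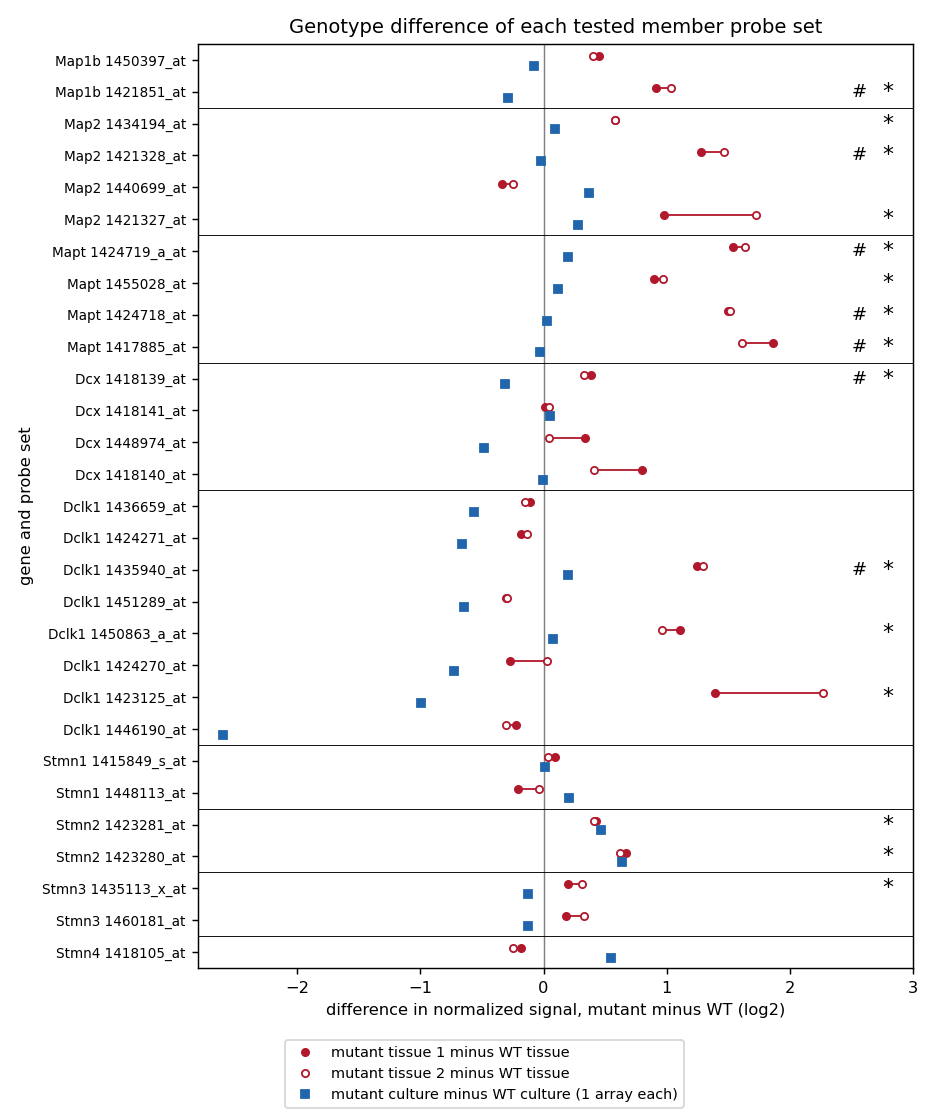
Difference in normalized log2 signal, mutant minus WT, for the 29 tested member probe sets: filled and open circles are mutant tissue arrays 1 and 2 against the WT tissue array, and squares are mutant against WT culture. Stars mark an adjusted p below 0.05 in tissue and hashes one for the interaction. The 15 starred rows all lie right of 0, and the 7 hashed rows have the culture square left of the tissue circles.

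Dcx, the X-linked doublecortin gene of migrating neurons, passed the threshold in tissue by 1 of 4 probe sets. By 1418139_at the signal was 3586 and 3233 in mutant tissue against 2933 in WT tissue, and 2079 in mutant culture against 2639 in WT culture. Mutant arrays were thus the highest in tissue and the mutant array the lower in culture. The tissue rise was 0.36 ± 0.07 (1.28-fold, limma adjusted p = 0.00935) and the interaction −0.67 ± 0.11 (adjusted p = 0.0216). The tissue call was lost with the deposited scaling kept (adjusted p = 0.27) and with arrays centred on their medians (0.0731). The interaction call was also lost with the deposited scaling kept (−0.56, adjusted p = 0.0938). The other probe set of like brightness, 1418141_at, read 2803 and 2736 in mutant tissue against 2949.9 in WT tissue. Its normalized difference of 0.03 ± 0.07 (adjusted p = 0.839) was −0.091 with the deposited scaling kept. The dimmer 1448974_at and 1418140_at differed by 0.19 and 0.60 in tissue (adjusted p = 0.587 and 0.14). In culture, without a test, they differed by −0.49 and −0.0038.

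Dclk1, which encodes a doublecortin-like protein fused to a kinase, divided by probe set. The probe set 1435940_at read 545 and 566 in mutant tissue against 224 in WT tissue, and 775 in mutant culture against 674 in WT culture. It rose in tissue by 1.27 ± 0.13 (2.42-fold, limma adjusted p = 0.000272), with an interaction of −1.07 ± 0.18 (adjusted p = 0.022). The probe sets 1450863_a_at and 1423125_at, from 1 shared target sequence, also rose in tissue, by 1.03 ± 0.16 (adjusted p = 0.00263) and 1.83 ± 0.44 (adjusted p = 0.0239). The dim 1423125_at (46.3 and 86.9 in mutant tissue against 18.6 in WT tissue) had passed the intensity filter only through the mutant tissue arrays, where it was high. Its call is therefore no separate support for a rise. The brightest probe set, 1436659_at, read 916 and 889 in mutant tissue against 976 in WT tissue, and 852 in mutant culture against 1289 in WT culture. Its differences were −0.13 ± 0.10 in tissue (adjusted p = 0.426) and −0.56 in culture. The 3 probe sets of another target, 1424271_at, 1451289_at and 1424270_at, lay between −0.30 and −0.12 in tissue and between −0.72 and −0.64 in culture. Across both preparations these 4 differed by −0.45 to −0.32, and 0 of them passed (adjusted p between 0.231 and 0.498).

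**Figure D3:**
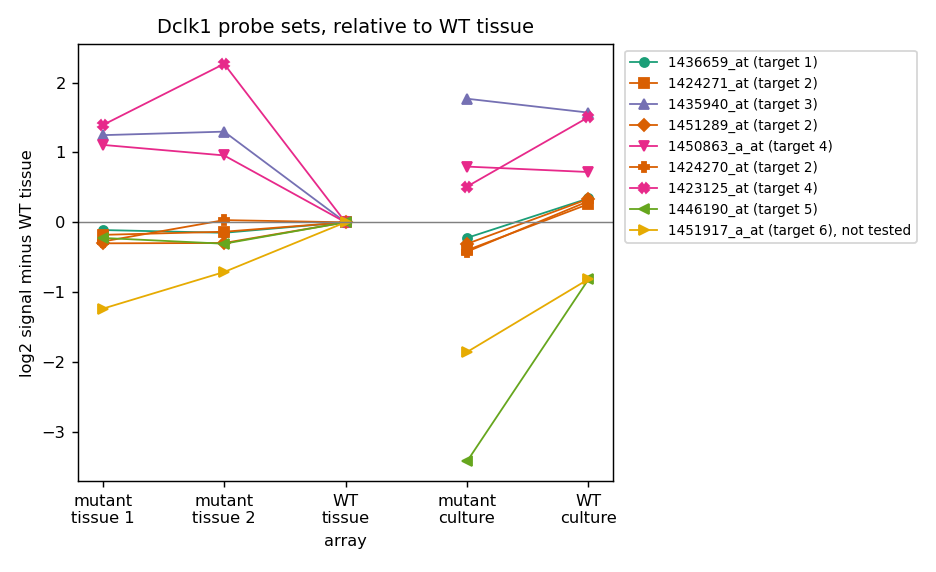
Log2 signal of the 9 Dclk1 probe sets minus their own value in WT tissue, by array, with colours for the target sequence a probe set was designed from and lines joining the values of 1 probe set within a preparation. Probe sets of targets 3 and 4 lie 0.96 to 2.27 above WT tissue in the mutant tissue arrays, while those of targets 1 and 2 lie within 0.30 of it.

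In tissue, mean differences of Dclk1 probe sets of 1 target thus had 1 sign, though 1424270_at differed by −0.28 and 0.031 on the 2 mutant arrays. The difference between targets was not tested. In culture 1450863_a_at and 1423125_at of 1 target parted, with differences of 0.08 and −0.99. Dim signal limits the remaining Dclk1 values. The probe set 1446190_at read 48.1 and 45.9 in mutant tissue against 57.0 in WT tissue. It was at the floor in mutant culture (deposited signal 4.25) against 29.4 in WT culture, at least 6.08-fold lower, and was the 1 of the 29 tested members past 2-fold in culture. The untested 1451917_a_at read 7.55 and 11.0 in mutant tissue, 20.2 in WT tissue, 4.03 in mutant culture and 10.3 in WT culture. Its mutant culture value was at the floor as well, at least 2.06-fold below WT culture.

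RefSeq (GRCm38.p6) lists start-site windows for Dclk1 at 2 places on chromosome 3 that lie 219364 bases apart. Which transcripts each probe set reads was not analysed here. The stretches upstream of both starts are shown because the Dclk1 probe sets disagreed, and that of Map2 because most of its probe sets rose. All are on the plus strand, in lower case, with matches to the searched motifs in capitals. Those of the first Dclk1 start and of Map2 end where the gene record begins.
Dclk1 first start, chr3:55242114-55242302: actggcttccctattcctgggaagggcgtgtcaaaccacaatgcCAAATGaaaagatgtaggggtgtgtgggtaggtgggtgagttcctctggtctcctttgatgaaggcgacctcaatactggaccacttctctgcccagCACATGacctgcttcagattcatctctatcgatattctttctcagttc
Dclk1 second start, chr3:55461478-55461727: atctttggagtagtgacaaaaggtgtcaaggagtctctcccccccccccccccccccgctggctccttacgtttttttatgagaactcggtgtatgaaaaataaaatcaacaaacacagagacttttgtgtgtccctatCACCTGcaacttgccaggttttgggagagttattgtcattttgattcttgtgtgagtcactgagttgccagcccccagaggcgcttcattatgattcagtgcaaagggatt
Map2, chr1:66175079-66175201: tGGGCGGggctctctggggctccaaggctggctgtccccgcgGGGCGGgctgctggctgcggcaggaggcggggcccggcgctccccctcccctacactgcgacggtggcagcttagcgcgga

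The motifs were TAATT, a core bound by many homeodomain factors, the E-box CANNTG and the GC box GGGCGG, each on both strands in the 250 bases before a start. Overlapping matches of 1 motif counted as 1 site. Of 32851 windows in the table, 25% held TAATT, 66.2% CANNTG and 32.7% GGGCGG. Windows were matched for 5 of the 9 genes, 7 windows in all. TAATT was found in both overlapping Dcx windows, 1 site each, and in none of the windows of Map1b, Map2, Dclk1 and Stmn3. The Map2 window held 5 GC boxes and 81.2% G and C bases, against a median of 52.4% over all windows. That window runs into the gene record, up to base 66175328, so not all of its GC boxes lie in the 123 bases shown. The Dclk1 windows held 2 E-boxes at the first start and 1 at the second, and no GC box. These matches are descriptions of the letters only.

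Stmn2, the neuronal stathmin known as SCG10 of growth cones, had genotype differences of one direction and like size in both preparations. By 1423281_at the signal was 2683 and 2553 in mutant tissue against 2069 in WT tissue, and 3425 in mutant culture against 2493 in WT culture. By 1423280_at it was 1528 and 1479 in mutant tissue against 972 in WT tissue, and 1917 in mutant culture against 1244 in WT culture. All mutant arrays lay above the WT array of their preparation. Both probe sets were designed from 1 shared target sequence, so they are not separate readings. Across both preparations 1423281_at rose by 0.44 ± 0.07 (1.35-fold, limma adjusted p = 0.0457) and 1423280_at by 0.64 ± 0.09 (1.56-fold, adjusted p = 0.0211). They were the 2 of 29 members past the threshold in that fit, 0 being lower, against 0.5% of all probe sets higher and 0.19% lower (at an unadjusted p under 0.05, 11 members were higher and 4 lower). Leaving out either mutant tissue array ended both calls (adjusted p between 0.0748 and 0.264). With the deposited scaling kept or arrays centred on their medians 1423281_at lost its call (adjusted p = 0.156 and 0.0988). The interaction was 0.04 ± 0.11 for 1423281_at and −0.01 ± 0.13 for 1423280_at (adjusted p = 0.865 and 0.977).

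Stmn4, another neuronal stathmin, showed the opposite order in the preparations. Its probe set 1418105_at read 495 and 476 in mutant tissue against 545 in WT tissue, and 1195 in mutant culture against 812 in WT culture. The difference was −0.22 ± 0.12 in tissue (limma adjusted p = 0.275) and 0.55 in culture. The interaction of 0.76 ± 0.16 missed the threshold (adjusted p = 0.0506), and passed with the deposited scaling kept (0.0192), with a pseudocount in place of the floor (0.0409) and with a stricter intensity filter (0.0294). It did not pass without an intensity trend in the prior, with dim probe sets included, or in the fit on the mean of probe sets per gene (0.144).

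**Figure D4:**
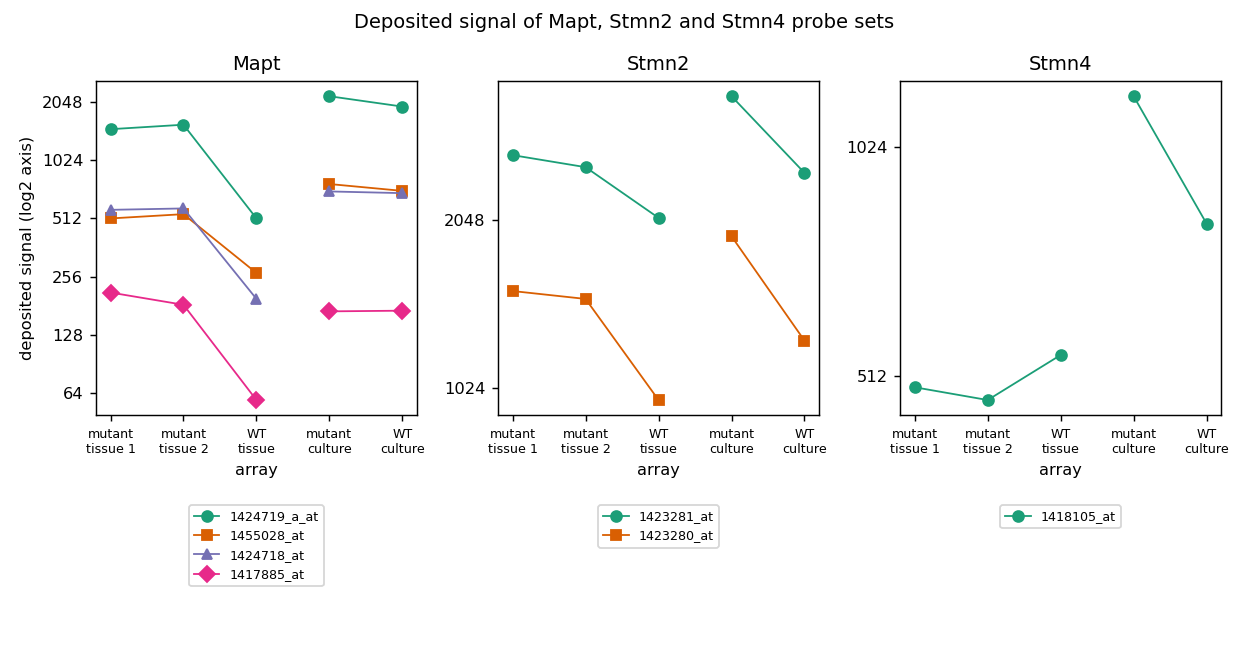
Deposited signal (log2 axis, a separate range for each panel) of the Mapt, Stmn2 and Stmn4 probe sets on the 5 arrays, with lines joining the values of 1 probe set within a preparation. Mapt is lowest in WT tissue, Stmn2 is higher in the mutant arrays of both preparations, and Stmn4 is highest in mutant culture at 1195.

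Stmn3 differed little with genotype. By 1435113_x_at it read 4922 and 4914 in mutant tissue against 4473 in WT tissue, and 5131 in mutant culture against 5534 in WT culture. Its tissue rise of 0.26 ± 0.07 (1.20-fold, limma adjusted p = 0.0389) was lost with the deposited scaling kept (adjusted p = 0.544) and with arrays centred on their medians (0.194). The other probe set, 1460181_at, differed by 0.25 ± 0.09 in tissue (adjusted p = 0.0982). Stmn1, the stathmin of dividing and immature cells, had no call with genotype. By 1415849_s_at it read 11222 and 9559.7 in mutant tissue against 11761 in WT tissue, and 10343 in mutant culture against 10035 in WT culture. Its normalized tissue difference of 0.07 ± 0.05 (adjusted p = 0.482) turned to −0.18 with the deposited scaling kept, so no direction is given. By 1448113_at the signal was 2692 and 2916 in mutant tissue against 3279 in WT tissue, and 1851 in mutant culture against 1624 in WT culture (−0.12 ± 0.08 in tissue, adjusted p = 0.4).

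Over all members, the interaction passed the threshold for 7 of 29 probe sets with a smaller value in culture and for 0 with a larger one, against 1.37% and 1.25% of all probe sets (limma; 17 smaller and 2 larger at an unadjusted p under 0.05). The median interaction was −0.60 over the members, against −0.01 over all probe sets tested. With arrays centred on their medians the median over all probe sets moved by −0.12 and the larger share of calls to 25.8%, against 47.7% as reported. Over all 21603 probe sets, 868 then had a smaller interaction, against 296 of 21602 as reported. The members' median was then −0.72, and 12 members passed. Without an intensity trend in the prior 0 passed, and with dim probe sets included 1 did. That model takes the spread of the groups with 1 array from the mutant tissue pair.

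Between culture and tissue, members differed in both directions. Of the 29, 7 were higher and 8 lower in culture, against 15.9% and 18.1% of all probe sets, so the shares were near or somewhat above the background. Mapt was higher by 3 of 4 probe sets, by 1.05 ± 0.26 for 1424719_a_at (2.07-fold, limma adjusted p = 0.0164). Stmn4 was higher by 0.97 ± 0.17 (1.96-fold, adjusted p = 0.00398), Dclk1 by 0.96 ± 0.22 for 1435940_at (adjusted p = 0.0123), and Stmn2 by 0.24 and 0.29 (adjusted p = 0.0318 and 0.0321). Both Stmn2 calls were lost without mutant tissue array 1 (adjusted p = 0.144 and 0.135) and without array 2 (0.129 and 0.136). Dcx was lower by all 4 probe sets, with differences from −1.11 to −0.37 (adjusted p between 0.00619 and 0.0222). With arrays centred on their medians 1418139_at (−0.36) and 1418141_at (−0.20) lost their calls (adjusted p = 0.0949 and 0.137). Without mutant tissue array 1, 1418139_at, 1418140_at and 1448974_at lost theirs (adjusted p = 0.052, 0.0513 and 0.0856). Map2 was lower by 1434194_at, at −0.78 ± 0.11 (1.71-fold, adjusted p = 0.00138), and by 1440699_at, at −0.79 ± 0.24 (adjusted p = 0.0365), a call lost without mutant tissue array 1 (0.0751) or 2 (0.0851). Stmn1 was lower by 1448113_at, at −0.84 ± 0.10 (1.79-fold, adjusted p = 0.00067), while 1415849_s_at from the same target differed by −0.07 ± 0.05 (adjusted p = 0.334). The dim 1446190_at of Dclk1 was also lower (adjusted p = 0.0188), but it had passed the intensity filter only through the tissue arrays, where it was high, and its mutant culture value was a floor value. Without the intensity trend 1 member was higher and 3 lower in culture, against 2317 and 2701 of all 21602 probe sets. With dim probe sets included 0 members were higher and 1 lower, against 1023 and 883 of all 45037. In this additive fit the Mapt value joins WT and mutant differences of unlike size, 1.84 and 0.45 for 1424719_a_at.

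Other genes of the microtubule cytoskeleton, 52 listed with 48 tested by their brightest probe set, gave a reference. In tissue 10 of the 48 rose and 1 fell, against 6.8% and 5.14% of all probe sets tested. Their median difference was 0.21. The risers included the microtubule-stabilizing protein gene Map6 (1.10 ± 0.17, limma adjusted p = 0.00312), Map4 (0.72 ± 0.16, adjusted p = 0.017), and Map9 (0.69 ± 0.16, adjusted p = 0.0212). Of 7 plus-end binding protein genes tested, 4 rose: Mapre2 (0.74 ± 0.08, adjusted p = 0.000296), Mapre3 (1.14 ± 0.29, adjusted p = 0.0293), Mapre1 (0.29) and Clasp2 (0.49). Dpysl3, a collapsin response mediator, rose by 0.53 ± 0.07 (adjusted p = 0.00113), and Atat1, the tubulin acetyltransferase gene, by 0.68 ± 0.14 (adjusted p = 0.0101). The tubulin-modifying enzyme gene Ttll1 rose by 0.37. Dclk2, a paralogue of Dclk1, fell by 0.55 ± 0.14 (adjusted p = 0.0359). The lists of kinases acting on these proteins (9 tested), dynein regulators of nuclear movement (3) and severing and minus-end proteins (7) had 0 calls in tissue. Across both preparations 0 of the 48 passed in limma, with 9 at an unadjusted p under 0.05. The interaction was smaller in culture for Mapre1, Mapre2 and Mapk10, a stress-activated kinase gene (3 of 48, against 1.37% of all probe sets).

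Markers of some cell types moved with genotype in tissue. The lists for astrocytes (3 tested), microglia (3), endothelium (2) and red blood cells (1) had 0 calls there. Of 10 neuron markers, 7 were higher and 1 lower in mutant tissue, with a median of 0.80. Among the higher ones were Rbfox3 (2.12), Nefl (1.59), Ina (1.25) and Syt1 (0.84). The lower one was Elavl4 (−0.38 ± 0.10, limma adjusted p = 0.0307), while Tubb3 differed by −0.13 and missed the threshold. The summed deposited signal of the 10 was 8930 and 9292 in mutant tissue, 7804 in WT tissue, 5956 in mutant culture and 7382 in WT culture. All 6 cycling cell markers tested were lower in mutant tissue (median −0.73) and lay above 0 in culture (median 0.16). Their sum was 10969 and 10240.4 in mutant tissue, 17014 in WT tissue, 14030.2 in mutant culture and 12907 in WT culture. The interaction was smaller in culture for 5 of the 10 neuron markers and larger for 5 of the 6 cycling cell markers. No marker of either list was at the floor on any array. Of 8 progenitor markers, 3 were higher and 0 lower in mutant tissue (median 0.02). They were Nes (3.38 ± 0.34, limma adjusted p = 0.000287), Fabp7 (0.32 ± 0.05, adjusted p = 0.00425) and Sox2 (0.25 ± 0.07, adjusted p = 0.041). All 4 oligodendrocyte lineage markers tested were higher in mutant tissue (median 1.56), and the 5 listed summed to 2255 and 2214 in mutant tissue, 1147 in WT tissue, 1209 in mutant culture and 592 in WT culture. The fifth, the untested Cspg4, went the other way, with 3.23 (at the floor) and 10.7 in mutant tissue against 34.0 in WT tissue. Among the tested ones, Sox10 had passed the intensity filter only through the mutant tissue arrays, where it was high. It read 53.5 and 52.3 there against 8.97 in WT tissue, and 29.1 in mutant culture against 53.9 in WT culture. The 6 pallial neuron markers were dim, with sums of 248 and 237 in mutant tissue, 58.2 in WT tissue, 156 in mutant culture and 78.5 in WT culture, and the 1 bright enough to be tested, Neurod2, was higher in mutant tissue (2.31 ± 0.46, limma adjusted p = 0.0103). Slc17a6 and Neurod6 were at the floor in both WT arrays, whereas the untested Tbr1 read 9.34 and 1.19 in mutant tissue against 29.3 in WT tissue, and 1.46 in mutant culture against 18.6 in WT culture. In bulk RNA, more cells of a type and more RNA per cell cannot be told apart.

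**Figure D5:**
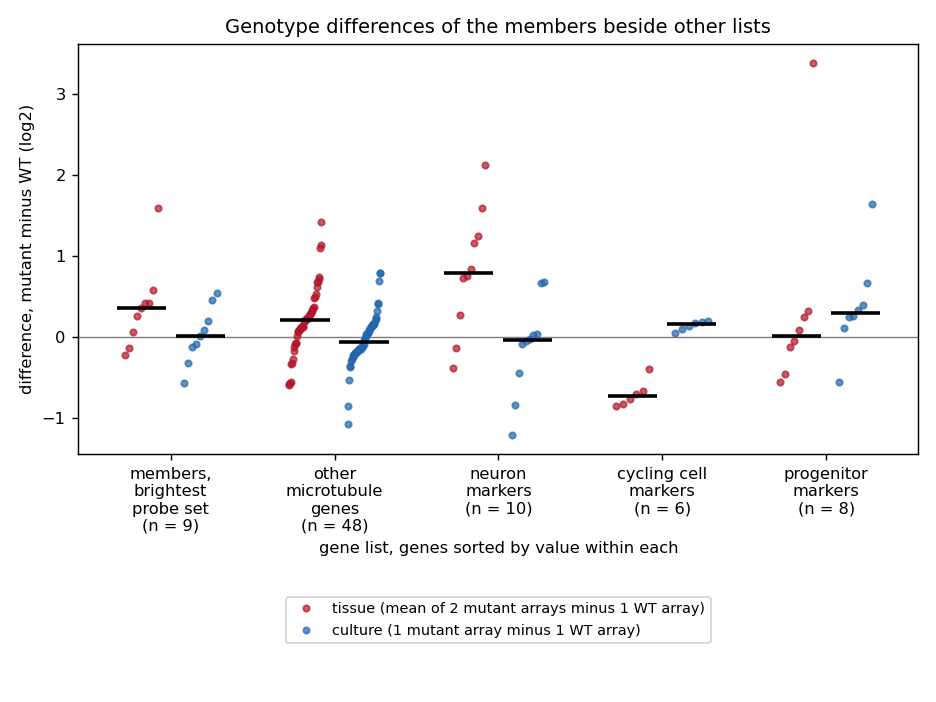
Difference in normalized log2 signal, mutant minus WT, for the brightest probe set of each gene in 5 lists, in tissue (left of each pair) and culture (right); bars are medians. The neuron markers have a tissue median of 0.80 and the cycling cell markers one of −0.73, while their culture medians lie nearer 0. The progenitor markers have a median of 0.02 in tissue and 0.30 in culture.

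Among 11054 other genes tested, the closest profile to each member over the 5 arrays was taken as the smallest root mean square difference of mean-centred log2 values. For Mapt it was Prmt8 (0.094), the only gene within 0.1 of it. For Map2 it was Kmt2e (0.034), for Map1b Ube2g2 (0.028), for Dcx Tsc2 (0.0099) and for Dclk1 Gal3st1 (0.026). For Stmn1 to Stmn4 in order it was Relch (0.016), Atp1b2 (0.038), Zfp202 (0.023) and 2700099C18Rik (0.053). Flat profiles have many close neighbours, such as 724 genes within 0.1 of Stmn1, so these names describe the 5 arrays only.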

How the data were processed

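Total RNA of 5 samples was measured on Affymetrix mouse arrays, and the values the authors deposited are linear intensities, with 1 value for each probe set. Per the values, each array's mean after trimming 2% at each end is 150.0. No software is named in the sources used here. Detection calls were not used. Array medians spanned 0.183 (log2), so arrays were quantile normalized. Signals below the pooled 20th percentile (5.15) were set to that floor, and log2 was taken. The 64 control probe sets were left out. Probe sets with a mean above the pooled median (27.8) were tested, 21602 in all. Genes were named through the platform annotation. Models were fitted with limma 3.58.1 (R 4.3.3), and the variance prior followed an intensity trend. Residual degrees of freedom were 1 in tissue, 2 across both preparations and 1 for the interaction. The code was tested on simulated data. The number of arrays limits the precision. Every probe set of the 9 genes is reported, 1 closest gene for each, and context genes past the threshold in tissue. The members, lists and tests were chosen with earlier results of these data known.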

Additional observations from a re-analysis of the deposited data

Results flagged for a closer look

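For 7 of 29 member probe sets the genotype difference in culture was smaller than in tissue by the interaction test in limma. For 0 it was larger. Over all probe sets tested the shares were 1.37% and 1.25%. All 7 calls were lost without an intensity trend in the prior, and 6 of them with dim probe sets included. For Mapt the interaction was −1.39 (1424719_a_at), −1.48 (1424718_at) and −1.76 (1417885_at). It was −1.39 for Map2 1421328_at, −1.26 for Map1b 1421851_at, −1.07 for Dclk1 1435940_at and −0.67 for Dcx 1418139_at. The Dcx call was lost with the deposited scaling kept (adjusted p = 0.0938). Each rests on 1 array in 3 of the 4 groups.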

How the results depend on the processing

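No paired analysis was possible because the labels give no shared replicate numbers and only mutant tissue has more than 1 array. Precision is limited by the number of arrays and, for dim probe sets, by the floor. Of 1055 member values under the alternatives, 32 differed in sign, and 0 of these were past the threshold as reported or under the alternative.

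Without the intensity filter, members called were 1 higher in tissue, 0 higher across both preparations, 0 higher and 1 lower in culture against tissue, and 1 smaller for the interaction, with 2 at least 2-fold lower in mutant culture. Of all 45037 probe sets then tested, 47 were higher in tissue, 0 across both preparations, and 1023 higher and 883 lower in culture against tissue. Without an intensity trend the member counts in the same order were 0, 0, 1 and 3, and 0. Of all 21602 probe sets, 0 were then higher in tissue, 0 across both preparations, and 2317 higher and 2701 lower in culture against tissue. More dim probe sets enter without the filter, while the cause of the change without the trend was not tested. By the brightest probe set of the 9 genes the member counts were 5, 1, 3 and 2, and 3 smaller with 1 larger, with 0 lower in mutant culture. Of all 11063 genes tested that way, 950 were higher in tissue, 90 across both preparations, and 2171 higher and 2126 lower in culture against tissue. By the mean of probe sets the member counts were 3, 1, 2 and 3, and 0, with 0 lower in mutant culture. Of all 9853 genes tested that way, 269 were higher in tissue, 24 across both preparations, and 1457 higher and 1507 lower in culture against tissue. With the deposited scaling kept, 1 member rose across both preparations and 1 had a larger interaction, Stmn4. Of all 21605 probe sets, 152 then rose across both preparations, and the interaction was larger for 501 and smaller for 613. With arrays centred on their medians, 1 member rose across both preparations and 12 had a smaller interaction. Of all 21603 probe sets, 127 then rose across both preparations and 868 had a smaller interaction. Among members, a pseudocount of 16 gave 1 larger interaction, and so did the filter at the 65th percentile, which left 0 members 2-fold lower in mutant culture. Without either mutant tissue array, 0 members rose across both preparations, and in culture against tissue 5 were higher and between 3 and 6 lower. Without replicate 1 it was 3. In tissue alone and for the interaction, leaving out an array left no test. Over all probe sets, tissue counts ranged between 0 and 2497 higher and between 0 and 1539 lower over the alternatives, against 1469 and 1110. Interaction counts ranged between 0 and 1645 larger and 0 and 868 smaller, against 270 and 296. Across both preparations they ranged between 0 and 152 higher and 0 and 54 lower, against 108 and 41. Culture against tissue gave 1023 to 3821 higher and 883 to 4306 lower, against 3444 and 3906. The 2-fold counts in culture ranged between 123 and 3801 higher and 154 and 3771 lower, against 480 and 468. Between 9853 and 45037 probe sets or genes were tested, depending on the alternative, so these ranges are not shares.

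The uncalled values that changed sign follow. With the deposited scaling kept, the tissue differences were −0.18 (Stmn1 1415849_s_at) and −0.091 (Dcx 1418141_at), and the interaction of Stmn1 1415849_s_at was 0.23. Across both preparations they were −0.086 and −0.049 (Stmn1), −0.024 and −0.040 (Dcx 1418139_at and 1418141_at) and 0.039 (Map2 1440699_at). With arrays centred on their medians, tissue differences were −0.094 (Stmn1 1415849_s_at), −0.0020 (Dcx 1418141_at) and 0.029 (Dclk1 1424270_at). In culture, untested, Dcx 1418140_at was 0.041 with the deposited scaling kept, and with arrays centred Dcx 1418141_at was −0.014 and Mapt 1424718_at −0.012. Across both preparations they were −0.053 and −0.016 (Stmn1), −0.0072 (Dcx 1418141_at) and 0.072 (Map2 1440699_at). Culture against tissue gave 0.0089 (Stmn1 1415849_s_at), 0.0081 and 0.085 (Dclk1 1424270_at and 1424271_at), and the interaction 0.096 (Stmn1 1415849_s_at), −0.012 (Dcx 1418141_at) and −0.011 (Stmn2 1423281_at). Leaving out either mutant tissue array gave 0.016 to 0.060 for Map2 1440699_at and −0.0013 to 0.085 for Stmn1 1448113_at across both preparations. For culture against tissue it gave −0.13 to 0.31 for Dclk1 1423125_at, −0.075 to 0.079 for 1424270_at and −0.0020 to 0.020 for 1424271_at. The untested values were −0.28 to 0.031 for Dclk1 1424270_at in tissue and −0.032 to 0.011 for the interaction of Stmn2 1423280_at.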
